A study of Mus musculus with 2 samples.

Results

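The transcripts described here encode proteins that copy, hold together, condense and separate chromosomes, and they were measured by RNA immunoprecipitation sequencing (RIP-seq) with an anti-FMRP antibody in testis of adult wild type mice. RIP-seq compares the RNA that precipitates with a protein, here the RNA-binding protein FMRP, with the RNA of the lysate it came from (the input). The study asked which testis mRNAs FMRP carries. It used 1 input library and 1 FMRP RIP library, the number of mice behind the lysate is not given in the sources used here, and no library made with control IgG was used here. The members were taken by gene symbol, with 1 pattern covering centromere (Cenp), cohesin and condensin (Smc, Stag, Ncap and others), spindle checkpoint, anaphase-promoting complex, cyclin, CDC, replication and cytokinesis genes and *Mki67*. The pattern took 60 of the 4788 rows of the deposited table, and these carried 58 gene symbols. *Ccnb3* and *Cdc42bpg* have 2 rows each, as described with their values.

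FMRP is found on translating ribosomes and is known mainly as a regulator of translation that binds within the coding region of many mRNAs. Chromosome segregation runs through a fixed set of machines: cohesin rings hold sister chromatids together, condensin compacts them, kinetochores built on centromeres attach them to the spindle, the checkpoint delays anaphase until all are attached, and the anaphase-promoting complex (APC/C) then releases separase to cut cohesin. In the testis these machines serve mitosis of spermatogonia and both divisions of meiosis, and meiotic cells use cohesin subunits of their own. Spermatids, which build the flagellum, no longer divide.

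The table lists only genes that passed the authors' limits as higher in the FMRP RIP, so all 60 rows did. That each member was higher in the FMRP RIP was therefore fixed by the selection, and only the size of the difference is described. The values are reads scaled to the library total (CPM), which are not divided by transcript length, so the level of one gene is not compared with that of another. With 1 library per group there was no replicate check and no test. Each ratio of FMRP RIP to input CPM is given with an exact Clopper-Pearson 95% interval, which covers counting error only. Implied library totals were 30849871 input reads and 36506932 FMRP RIP reads. The listed genes held 14.2% of input reads and 55.2% of FMRP RIP reads. In a bulk library, fewer cells of a type and less RNA per cell cannot be told apart. Of germ cell markers, 2 of 7 for spermatogonia (*Gfra1* and *Sall4*) and 2 of 8 for spermatocytes (*Sycp1* and *Sycp2*) were listed. For round spermatids it was 1 of 6 (*Spata16*) and for elongating spermatids 1 of 7 (*Akap4*). Most germ cell markers were thus not listed, and over all protein-coding genes the listed share was 21.3%. None of the Sertoli, Leydig, peritubular myoid, macrophage or blood markers was listed, and 1 of 3 endothelial markers was (*Vwf*). An unlisted marker was not called higher, which says nothing about whether it was present.

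With a pseudocount of 1 CPM added to both libraries, all 60 rows reached a fold of 1.5, where 97.3% of all listed rows did. A fold of at least 1.5 was itself a limit of the authors, so this count was largely fixed by the selection. A log2 ratio above 1 was reached by 48 of the 60 rows (80%), against 70.1% of listed rows, and a log2 ratio above 2 by 22 rows (36.7%), against 25%. The members stood apart most from the other listed genes at the upper end. There, 11 rows (18.3%) had a log2 ratio above 3, against 6.62%, and 16 rows (26.7%) fell in the top 10% of listed rows. The limits of 2 and 3 and the top 10% were set after the values were seen. The members had been chosen with earlier results of these data known, so these shares only describe the set. The median log2 ratio of the members was 1.52, with quartiles of 1.08 and 2.81, and that of all listed rows was 1.35, with quartiles of 0.92 and 2.0. The difference in the share above 1 rested on the pseudocount, since without it the shares were 81.7% and 81.3%. Above 3, the count without a pseudocount was 13 of 60 rows, against 10.6% of listed rows, and 13 rows were in the top 10%.

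**Figure D1:**
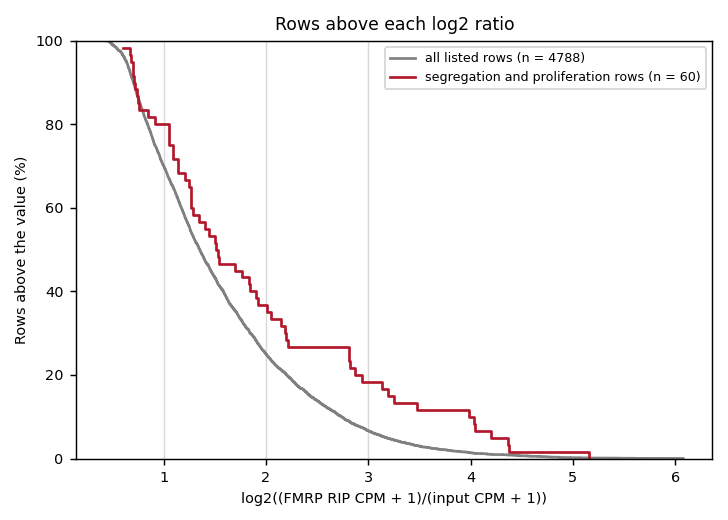
Percent of rows (vertical axis) above each log2 ratio of FMRP RIP to input CPM, with a pseudocount of 1 CPM (horizontal axis), for the 60 segregation and proliferation rows (red) and all 4788 listed rows (grey). The curves lie close below a log2 ratio of 1 and are widest apart between 2 and 4. Grey lines mark log2 ratios of 1, 2 and 3.

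*Mki67*, which encodes the Ki-67 protein that coats mitotic chromosomes and is the standard marker of proliferating cells, had the highest ratio of the members. The gene (ENSMUSG00000031004) lies on the minus strand of chromosome 7 from 135689784 to 135716361 in GRCm38. It had 2.07 CPM in input RNA and 109 CPM in FMRP RIP RNA, a ratio of 52.5 (interval 41.0 to 68.3). Its log2 ratio of 5.16 ranked 7 among the 4788 listed rows, and the 64 input reads set the width of the interval. The members made up 1.25% of listed rows. Of the first 100 ranks by log2 ratio with the pseudocount, 7 were held by members, which were *Mki67*, *Cenpf*, *Cdc42bpa*, *Rev3l*, *Smc1b*, *Cenpe* and *Nipbl*. Together with *Smc6* and *Cit*, these 7 made up the 9 members with at least a 10-fold ratio.

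The kinetochore and checkpoint rows ran from some of the highest to some of the lowest ratios of the whole set. The 10 rows had a median log2 ratio of 1.59, and 7 were above 1. At the top were 2 large coiled-coil proteins of the outer kinetochore. *Cenpf* (ENSMUSG00000026605, chromosome 1 from 189640606 to 189688086), whose protein binds microtubules at the kinetochore, had 5.52 CPM in input RNA and 134 CPM in FMRP RIP RNA, a ratio of 24.2 (20.8 to 28.5). *Cenpe* (chromosome 3 from 135212537 to 135273611), the kinesin motor that moves chromosomes to the spindle equator, had 2.98 CPM and 64.3 CPM, a ratio of 21.6 (17.5 to 26.9). The intervals of *Cenpf* and *Cenpe* overlap, and that of *Mki67* lies above both.

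Among the checkpoint transcripts, *Ttk*, the kinase that starts checkpoint signalling, was the highest. It had 9.43 CPM in input RNA and 72.8 CPM in FMRP RIP RNA, a ratio of 7.72 (6.84 to 8.74). *Knl1*, the outer kinetochore scaffold on which checkpoint kinases dock, had 8.05 CPM and 31.4 CPM, a ratio of 3.90. *Bub1*, a kinase that docks there, had 17.7 CPM and 37.8 CPM, a ratio of 2.14 (1.94 to 2.37), so *Ttk* was 3.61 times as high in ratio. *Kntc1*, part of the complex that brings dynein to kinetochores, was lowest of these, with 26.9 CPM and 44.3 CPM, a ratio of 1.64.

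The proteins that sit on the centromere throughout the cell cycle had lower ratios than the outer kinetochore pair. *Cenpu* had 7.42 CPM in input RNA and 29.0 CPM in FMRP RIP RNA, a ratio of 3.91 (3.39 to 4.53). *Cenpn*, which recognises the centromeric nucleosome, had 46.2 CPM and 119 CPM, a ratio of 2.58. *Cenpb*, which binds a DNA motif in centromeric repeats, had 5.19 CPM and 10.7 CPM, a ratio of 2.07. *Cenpc1*, the scaffold linking the centromeric nucleosome to the outer kinetochore, had 6.42 CPM and 10.8 CPM, a ratio of 1.69 (1.42 to 2.01), the lowest log2 ratio of the group at 0.67.

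Cohesin and its regulators had a median log2 ratio of 1.92 over 11 rows, with 9 above 1 and 4 in the top 10% of listed rows. The subunits of the ring itself were far apart. *Smc1b* (chromosome 15 from 85064689 to 85131964), the meiotic form of an SMC subunit, had 5.32 CPM in input RNA and 103 CPM in FMRP RIP RNA, a ratio of 19.4 (16.6 to 22.8). Its partner *Smc3*, used in both mitosis and meiosis, had 6.0 CPM and 50.0 CPM, a ratio of 8.34 (7.17 to 9.76). *Stag3* (chromosome 5 from 138280240 to 138312393), the meiotic STAG subunit, had 468 CPM and 844 CPM, a ratio of only 1.80 (1.77 to 1.84). The 2 meiosis-specific subunits thus differed 10.7-fold in ratio, and the intervals of *Smc1b*, *Smc3* and *Stag3* do not overlap.

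The mitotic STAG subunits lay between them. *Stag1* had 16.5 CPM in input RNA and 55.6 CPM in FMRP RIP RNA, a ratio of 3.38 (3.06 to 3.73). *Stag2*, on the X chromosome, had 5.77 CPM and 14.6 CPM, a ratio of 2.53 (2.13 to 3.02). Both were above *Stag3*, and *Stag1* was above *Stag2* with intervals that just fail to meet. The values of all 3 STAG genes were whole reads in both libraries.

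*Nipbl* and *Wapl*, of cohesin loading and release, were with *Smc1b* and *Smc3* the 4 highest of the group. *Nipbl* (chromosome 15 from 8290617 to 8444463), the loading factor, had 42.0 CPM in input RNA and 679 CPM in FMRP RIP RNA, a ratio of 16.2 (15.3 to 17.1) that rests on 1296 input reads. *Wapl*, which opens the ring, had 26.0 CPM and 188 CPM, a ratio of 7.23 (6.72 to 7.79). *Pds5a* and *Pds5b*, paralogs that act with WAPL, had the same 10.8 CPM (334 reads each) in the input and 53.1 CPM and 43.8 CPM in the FMRP RIP. Their ratios of 4.90 (4.36 to 5.52) and 4.05 (3.59 to 4.57) have overlapping intervals.

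The enzymes that close and cut the ring had lower ratios than *Nipbl*, *Wapl*, *Pds5a* and *Pds5b*, but not than every cohesin row. *Esco1*, which acetylates SMC3 so that the ring stays closed, had 6.05 CPM in input RNA and 17.7 CPM in FMRP RIP RNA, a ratio of 2.93. *Espl1*, separase, had 77.1 CPM and 130.5 CPM, a ratio of 1.69 (1.61 to 1.78), the lowest of the cohesin rows.

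**Figure D2:**
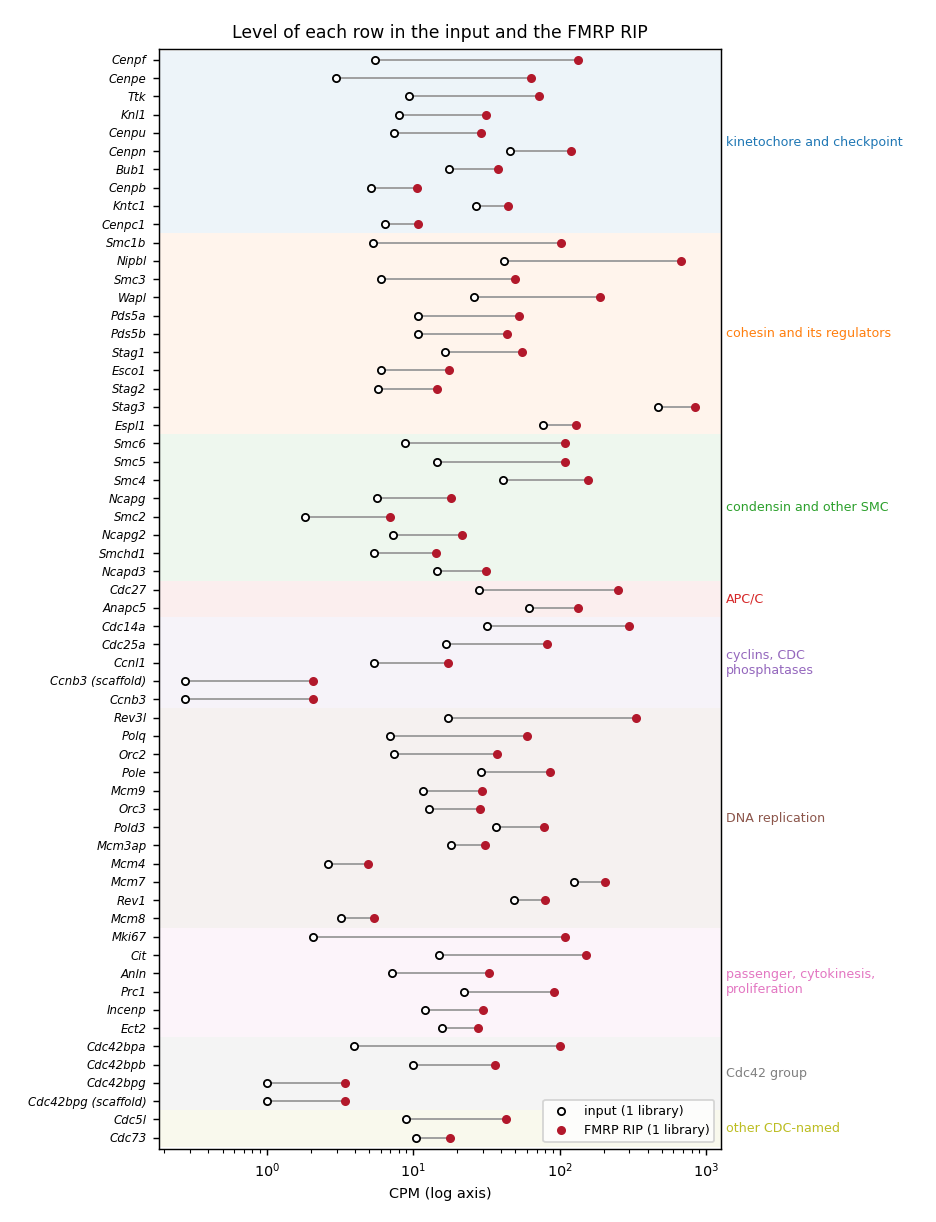
CPM of each of the 60 rows (log axis) in the input library (open circles) and the FMRP RIP library (red circles), ordered by role and, within a role, by log2 ratio. The longest lines belong to *Mki67*, *Cdc42bpa*, *Cenpf* and *Cenpe*, and *Stag3*, the row with the most CPM in both libraries, has one of the shortest.

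Condensin and the other SMC proteins had a median log2 ratio of 1.52 over 8 rows, all above 1. The pair that forms the SMC5/6 complex, which acts in DNA repair and at stalled replication forks, was highest. *Smc6* had 8.85 CPM in input RNA and 109 CPM in FMRP RIP RNA, a ratio of 12.3 (10.9 to 14.0). *Smc5* had 14.7 CPM and 109 CPM, a ratio of 7.45 (6.76 to 8.23), and the intervals of the partners do not overlap.

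The condensin subunits were closer to each other than those of cohesin, with ratios from 2.14 to 3.85. *Smc4* had 41.0 CPM in input RNA and 156 CPM in FMRP RIP RNA, a ratio of 3.80 (3.57 to 4.04). *Smc2*, its partner in both condensin complexes, had 1.82 CPM and 6.98 CPM, a ratio of 3.85 (2.87 to 5.24). The partners could not be told apart within counting error. *Ncapg* of condensin I and *Ncapg2* of condensin II had ratios of 3.22 and 2.96, and *Ncapd3* of condensin II had 14.6 CPM and 31.3 CPM, a ratio of 2.14 (1.92 to 2.39). *Smchd1*, an SMC-related protein that acts in silencing of the inactive X chromosome, had 5.40 CPM and 14.4 CPM, a ratio of 2.67.

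Of the APC/C, 2 subunits were listed. *Cdc27*, a subunit of the arm that binds the activators, had 28.0 CPM in input RNA and 253 CPM in FMRP RIP RNA, a ratio of 9.02 (8.41 to 9.69). *Anapc5*, a scaffold subunit, had 62.2 CPM and 134 CPM, a ratio of 2.15 (2.04 to 2.27). The 2 subunits differed 4.20-fold in ratio.

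Among the cell cycle phosphatases, *Cdc14a*, named after the yeast enzyme of mitotic exit, was the highest. It had 31.9 CPM in input RNA and 300.1 CPM in FMRP RIP RNA, a ratio of 9.42 (8.82 to 10.1), with an interval that overlaps that of *Cdc27*. *Cdc25a*, which activates cyclin-dependent kinases, had 16.9 CPM and 82.1 CPM, a ratio of 4.86 (4.43 to 5.35). Of the cyclins, *Ccnl1*, which works with kinases of pre-mRNA splicing and not in the division cycle, had 5.41 CPM and 17.3 CPM, a ratio of 3.20.

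*Ccnb3*, a cyclin used in meiosis, was at the limit of the depth. It is listed on the X chromosome and again on the scaffold KZ289093.1, with the same value on both rows, 0.276 CPM in input RNA and 2.07 CPM in FMRP RIP RNA. Each row stands for 8.50 and 75.5 reads, so the reads of the gene were divided evenly between the copies. Summed, the 17 input reads and 151 FMRP RIP reads gave a ratio of 7.51 with a wide interval of 4.54 to 13.2. The log2 ratio of a single row was 1.27 and that of the sum 1.73, since the pseudocount weighs more on halved values.

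The replication genes had the lowest median log2 ratio of the larger groups, 1.07 over 12 rows, with 7 above 1. The 2 highest rows encode DNA polymerases of damage tolerance and repair. *Rev3l* (chromosome 10 from 39732118 to 39875211), the catalytic subunit of the translesion polymerase zeta, had 17.2 CPM in input RNA and 333 CPM in FMRP RIP RNA, a ratio of 19.3 (17.7 to 21.1). *Polq*, the polymerase of an error-prone end joining pathway, had 6.97 CPM and 59.9 CPM, a ratio of 8.60 (7.47 to 9.93). *Rev1*, the scaffold that recruits polymerase zeta, was at the other end of the group, with 49.0 CPM and 79.1 CPM and a ratio of 1.61 (1.52 to 1.72), so *Rev3l* was 11.96 times as high in ratio.

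Of the origin recognition complex, *Orc2* had 7.39 CPM in input RNA and 37.2 CPM in FMRP RIP RNA, a ratio of 5.03 (4.37 to 5.82), and *Orc3* had 12.9 CPM and 28.7 CPM, a ratio of 2.22 (1.98 to 2.50). The listed replicative polymerase subunits were *Pole*, the catalytic subunit of the leading strand enzyme, with a ratio of 2.97, and *Pold3*, with a ratio of 2.10. The listed MCM2 to MCM7 helicase genes had lower ratios than both. *Mcm7* had 125 CPM and 205 CPM, a ratio of 1.64 (1.58 to 1.71), and *Mcm4* had 2.63 CPM and 4.96 CPM, a ratio of 1.89 (1.45 to 2.49). *Mcm8* and *Mcm9*, which form a helicase of homologous recombination, had ratios of 1.68 (1.31 to 2.16) and 2.56 (2.27 to 2.90). *Mcm3ap*, whose protein acts in mRNA export, had a ratio of 1.70.

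The passenger complex, cytokinesis and proliferation rows, *Mki67* included, had a median log2 ratio of 2.03 over 6 rows, with 5 above 1. *Cit*, the citron kinase of the midbody, had 15.1 CPM in input RNA and 151.5 CPM in FMRP RIP RNA, a ratio of 10.1 (9.14 to 11.1). *Anln*, anillin of the cleavage furrow, had a ratio of 4.58, and *Prc1*, which bundles microtubules in the central spindle, one of 4.16. *Incenp*, the scaffold of the chromosomal passenger complex, had 11.99 CPM and 29.8 CPM, a ratio of 2.48 (2.21 to 2.80). *Ect2*, the exchange factor that activates RhoA at the division plane, was lowest, with 15.9 CPM and 27.6 CPM, a ratio of 1.74.

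**Figure D3:**
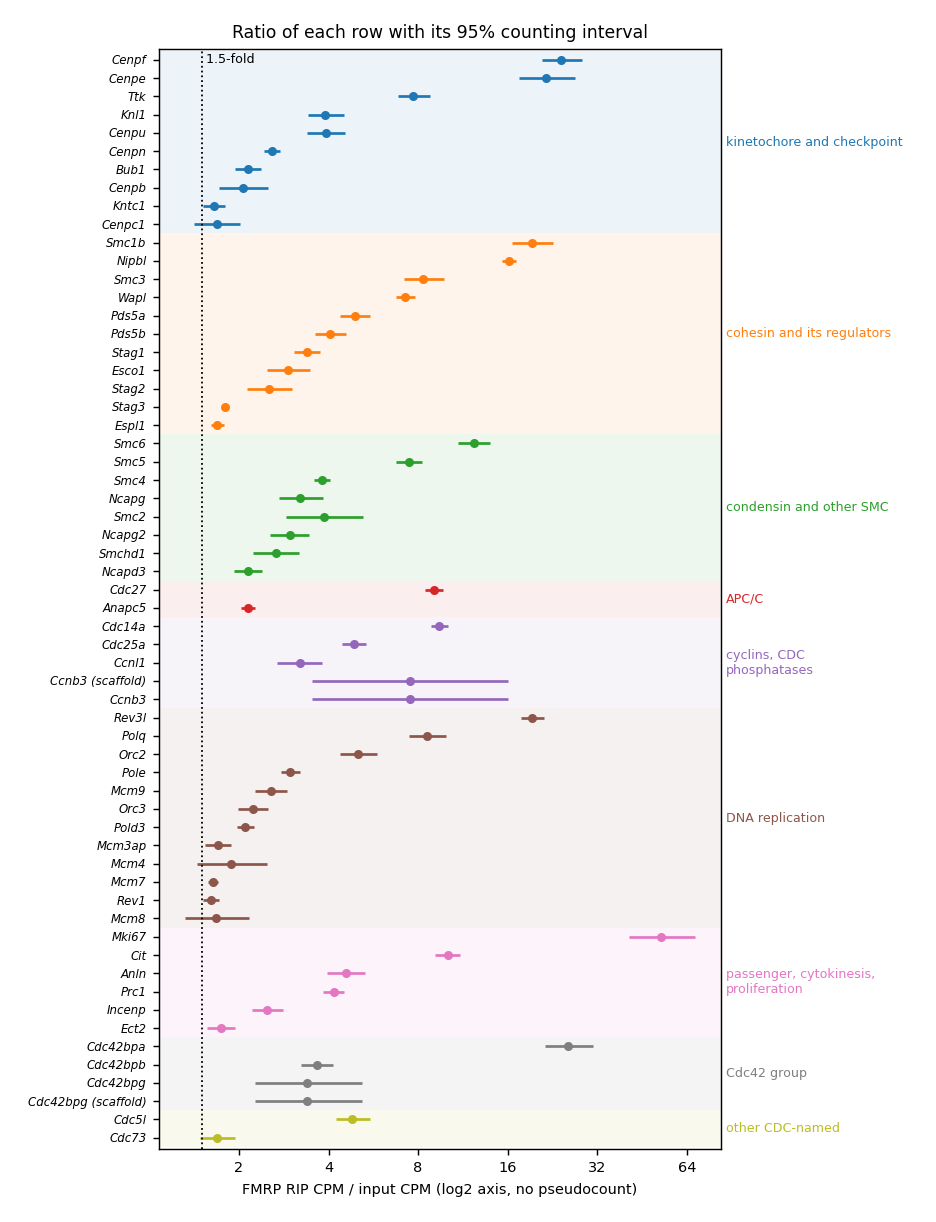
Ratio of FMRP RIP to input CPM without a pseudocount (log2 axis) for each of the 60 rows, with bars for the exact 95% counting interval, coloured by role. Within nearly every role the ratios spread over several fold, from *Mki67* at 52.5 down to *Rev1* at 1.61, and the dotted line marks a ratio of 1.5. The *Ccnb3* and *Cdc42bpg* rows each hold an equal share of the gene's reads, which widens their bars.

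Several rows carry a CDC name without a role in chromosome segregation. *Cdc42bpa* (chromosome 1 from 179960472 to 180165603), a kinase that acts on actomyosin downstream of CDC42, had 3.95 CPM in input RNA and 101 CPM in FMRP RIP RNA, a ratio of 25.6 (21.3 to 30.9), the second highest ratio of the members. Its paralog *Cdc42bpb* had 9.98 CPM and 36.5 CPM, a ratio of 3.65 (3.22 to 4.15). *Cdc42bpg* was listed on chromosome 19 and on the scaffold KQ030494.1 with the same value, and its summed reads gave 3.39 (2.56 to 4.56). The paralogs therefore differed 7.0-fold between *Cdc42bpa* and *Cdc42bpb*, while the intervals of *Cdc42bpb* and *Cdc42bpg* overlap. *Cdc5l*, a splicing factor, and *Cdc73*, of a transcription elongation complex, had ratios of 4.82 and 1.69. Leaving out these 6 rows, the median log2 ratio of the other 54 was 1.52 and 43 were above 1.

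Because the table lists only genes called higher, the members can also be counted against the genes that the same pattern takes in the reference annotation (RefSeq, GRCm38.p6). The pattern takes 148 protein-coding genes, of which 58 were listed (39.2%), where 21.3% of all 21900 protein-coding symbols were. The pattern names some genes singly and was chosen with earlier results of these data known. Its share may partly follow from that choice and is given as a description of the pattern only. From a list of 73 genes of the same processes outside the pattern, 16 were listed (21.9%). Within the pattern, the share differed by role. It was 6 of 7 genes for the passenger complex, cytokinesis and proliferation, 11 of 15 for cohesin and its regulators (73.3%) and 8 of 11 for condensin and other SMC proteins (72.7%). It was 10 of 27 for the kinetochore and checkpoint (37%) and 12 of 34 for DNA replication (35.3%). For cyclins and CDC phosphatases it was 4 of 20 (20%), and for the APC/C 2 of 16 (12.5%), both near or below the share over all genes. The passenger complex and cytokinesis genes *Aurkb*, *Birc5*, *Cdca8* and *Racgap1*, which the pattern does not take, were not listed.

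Counts within single complexes are read against the same 21.3%, and most genes of any kind were not listed. Of 15 CENP-named genes of the constitutive centromere network, 3 were listed, which were *Cenpc1*, *Cenpn* and *Cenpu*. The MCM2 to MCM7 helicase had 2 of 6 genes listed, the origin recognition complex 2 of 6, and the replicative polymerases alpha, delta and epsilon 2 of 10. Of the 14 cyclin genes that the pattern takes, which are not all cyclins, 2 were listed. *Ccna2*, *Ccnb1* and *Ccnb2*, the cyclins that drive cells into division, were not. The mitotic cohesin subunits *Smc1a* and *Rad21* and the meiotic *Rad21l* were not listed either, so 5 of the 8 ring and STAG genes that the pattern takes were, and the pattern does not take the meiotic ring gene *Rec8*. Whether an unlisted gene was too low in testis, equal in both libraries or lower in the FMRP RIP cannot be told apart here. The complexes were grouped after the values had been seen.

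Listed genes of the pattern had a longer span, the distance from gene start to gene end including introns, than the unlisted ones, with medians of 50.1 kb and 18.0 kb. Span moved with listing over the whole reference as well. Of genes from 30 kb to under 100 kb, 35 of 59 in the pattern were listed (59.3%), against 37.7% of all protein-coding genes of that span. From 10 kb to under 30 kb it was 12 of 53 (22.6%) against 18.1%, under 10 kb 2 of 24 (8.33%) against 4.91%, and at 100 kb or more 9 of 12 (75%) against 49.2%. The share was higher in the pattern in each of these 4 ranges, but under 30 kb it was within a few points of that of all genes. Because the pattern was chosen with earlier results known, these shares may partly follow from that choice and only describe the pattern. The reference counts genes whether or not the testis expresses them, and the difference was not tested. Spearman's rho between span and log2 ratio was 0.30 over the 58 members and 0.16 over the 4745 listed symbols, as a description, since these genes share the same libraries. Span is not transcript or coding length, and the part of coding length in these ratios was not tested.

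**Figure D4:**
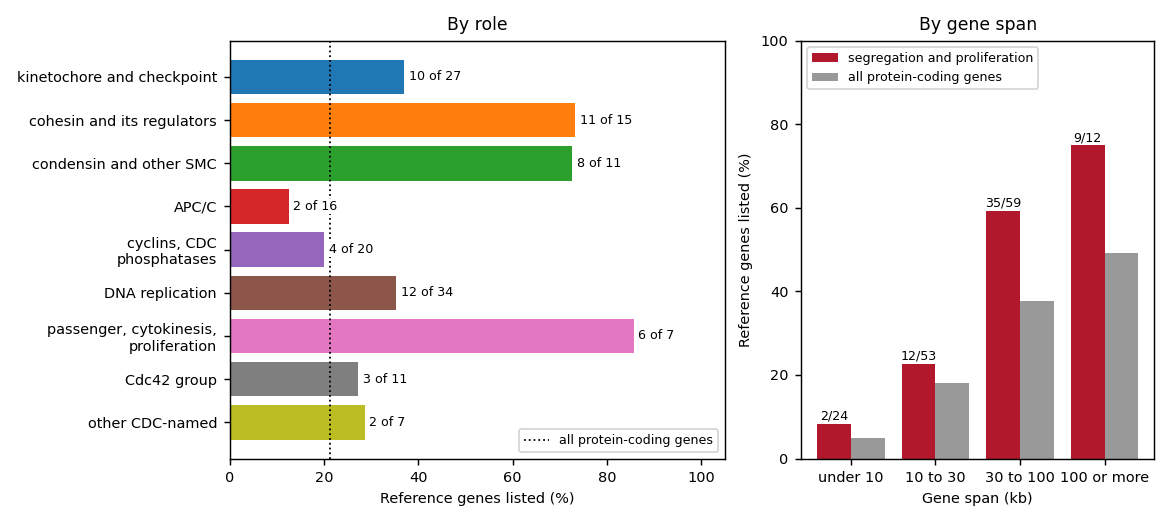
Percent of RefSeq protein-coding genes listed as higher in the FMRP RIP. Left, genes of the pattern by role, with the number listed of the number in the reference and a dotted line at the 21.3% of all protein-coding genes; cohesin, condensin and cytokinesis genes lie far to the right of it and the APC/C to its left. Right, by gene span in kb, genes of the pattern (red, with counts) and all protein-coding genes (grey). The red bar is the higher of the pair in each range, by a few points only under 30 kb.

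The ratios of the members were also read against the input level. Of the 30 rows under 10 CPM in the input, the median log2 ratio with the pseudocount of 1 CPM was 1.65, where all listed rows in that range had 1.21. The pseudocount shrinks ratios most in that range, where 13 listed rows had 0 CPM in the input. Medians by range without it were not computed. In the range from 10 CPM to under 100 CPM, the 28 rows had a median of 1.44, under the 1.54 of the listed rows there. The 2 rows at 100 CPM or more, *Stag3* and *Mcm7*, had a median of 0.78, against 1.56. Over the 58 members, Spearman's rho between input level and log2 ratio was -0.17, and over all listed symbols it was 0.25, both as a description. These values rested on the pseudocount, since without it they were -0.28 and -0.096. Summed over the 60 rows, the members held 0.148% of the input library and 0.562% of the FMRP RIP library, a ratio of 3.78, and all listed rows together had 3.89. *Stag3* held the most CPM of the 60 rows, and without it the ratio of the sums was 4.69. No row was left out of the listed set in the same way, so 4.69 is not set against 3.89.

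Other genes of chromosome segregation and replication outside the pattern, from a list of 73, were listed for 16 genes (21.9%, against 21.3% over all protein-coding genes). Of these, *Rfc1*, the large subunit of the clamp loader, had the highest ratio, 14.0 (12.5 to 15.7), from 10.8 CPM to 151 CPM. *Plk4*, the kinase of centriole duplication, had 8.01, and *Sgo2a*, which protects centromeric cohesin in meiosis, had 6.20 (5.20 to 7.44). *Haspin*, a histone kinase named for its expression in haploid germ cells, had 271 CPM and 1018 CPM, a ratio of 3.75. *Mau2*, the partner of NIPBL in the cohesin loader, had 56.1 CPM and 104 CPM, a ratio of 1.85 (1.75 to 1.96), far under the 16.2 of *Nipbl*. The Aurora kinase genes *Aurka*, *Aurkb* and *Aurkc*, *Plk1*, *Cdk1* and the meiotic cohesin gene *Rec8* were not listed.

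The lower end of the counting interval was under 1.5 for *Cenpc1*, *Mcm4*, *Mcm8* and *Cdc73*. For the other rows it was at or above 1.5, which the selection of listed genes by fold largely fixed. Under 100 input reads lay behind 9 rows, *Mki67* and *Cenpe* among them. In 19 rows at least 1 value was not a whole number of reads, so reads were divided between features there, *Cenpf* among them.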

How the data were processed

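RIP-seq of testis from adult wild type mice was analysed, with 1 input and 1 FMRP RIP library, grouped by their labels. The authors deposited CPM values per gene for rows they had called higher with edgeR. Their log2 fold change, fold change, p-value and adjusted p-value columns, also deposited by the authors, were not used. The submitters' processing notes name STAR and GRCm38 (mm10). The counting tool, its strand setting and its filters are not given in the sources used here.

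Library totals were the smallest at which over 65% of a subset of the lower values were close to whole reads. Each was then refined to the nearby total with the most whole values. A value was afterwards counted as whole if it lay within 0.005 read of a whole number. At these totals 78.4% of input values above 0 and 78.8% of FMRP RIP values were whole, so no count test was run. A read counted for 0.0324 CPM (input) or 0.0274 CPM (FMRP RIP), which puts a floor of 3 reads at 0.0972 CPM or 0.0822 CPM. The log2 ratio used a pseudocount of 1 CPM, which understates the change of low genes. Intervals came from rounded reads, and as PCR copies are not independent molecules, intervals and floors cover counting error only. Listed symbols were matched to RefSeq by symbol or a single synonym (4674 of 4745). Any member could be named. The plan was to describe in full the 2 highest and the lowest of each role, *Mki67* and those with at least 100 CPM in the input. Further members were described in full outside that plan. Members, roles and lists were chosen with earlier results of these data known, and the limits of log2 2 and 3, the top 10% and the complexes after the values were seen. The total and interval functions were tested on simulated data. Software was scipy 1.17.1, pandas 2.3.3, numpy 2.4.6 and matplotlib 3.10.9 under Python 3.11.15.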

Additional observations from a re-analysis of the deposited data

How the results depend on the processing

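All 60 rows reached a fold of 1.5, which the selection largely fixed, and 52 did with a pseudocount of 5 CPM. The count above a log2 ratio of 1 was 48 and lay between 32, over the 41 rows of whole reads, and 60, when libraries were scaled to reads on other genes, within 1.5 times in each alternative. The median log2 ratio of 1.52 moved to 1.20 when 5 CPM was added, 1.80 with an addition below 1 CPM, 1.82 with none, 1.77 over rows of whole reads only and 2.42 when scaled to reads on other genes. That scaling multiplies every FMRP RIP value by 1.92 and takes the median of all listed rows from 1.35 to 2.24, so ratios are relative to the library totals. Moves were compared with 0.18, the median distance from the middle to the end of a row's counting interval on the log2 scale. A minimum of 1 CPM and the summing of copies, the latter chosen after seeing the data, moved the median by less than that. Medians of the 9 roles moved by more than 0.18 in 7 with 5 CPM, 3 with the smaller addition, 3 with none and 9 with the scaling. No listed gene could change direction in these alternatives, so they say nothing about stability. No paired analysis was possible because there was 1 input and 1 FMRP RIP library. Depth limits the ratios of *Ccnb3*, *Cdc42bpg*, *Smc2*, *Mcm4* and *Mki67* most, which have the widest counting intervals relative to their ratios.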

Other observations

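The even division of reads seen for *Ccnb3* and *Cdc42bpg* recurred across the table. Of the 4788 listed rows, 45 lay on scaffolds outside the chromosomes. For 40 symbols, 1 row was on a chromosome and 1 on a scaffold, and in 35 of these pairs both rows had the same CPM in both libraries. *Plk4*, outside the symbol pattern, was such a pair, with 8.32 CPM in input RNA and 66.7 CPM in FMRP RIP RNA on each row.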
